A study of Mus musculus with 2 samples.

Results

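Genes of iron and haem handling, 8 of the 27998 genes in the count tables, were followed across the immune cells of mouse tumours: Hmox1, Blvrb, Fth1, Ftl1, Ncoa4, Slc11a1, Slc40a1 and Tfrc. They were chosen by name, with earlier results of these data known, and the same rows were read in both libraries. The cells were live CD45+ cells (7AAD-negative, sorted by flow cytometry, immune cells in the main) from tumours grown under the skin. There was 1 library from CD94-KO mice and 1 from WT mice, both on C57BL/6J and 6 to 8 weeks old, and each library was derived from 5 tumour-bearing mice. CD94, encoded by Klrd1, is a receptor chain of NK cells and some T cells, and the series asks whether its loss or blockade alters immunity against tumours. The tumour line, the part of Klrd1 that was deleted, and whether the mice of a library were littermates are not given in the sources used here. With 1 library per genotype and pooled mice there was no replicate, no test and no p-value. Every difference below describes this pair of libraries. Intervals in brackets are 95% intervals that cover counting error only.

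Macrophages take up haem from dying cells and debris and open its ring with haem oxygenase 1, the product of Hmox1, which releases iron, carbon monoxide and biliverdin. Biliverdin can be reduced further to bilirubin. Blvrb encodes biliverdin reductase B, also known as a flavin reductase. Iron that is not used is stored inside ferritin, a shell of heavy chains (Fth1, which oxidise iron) and light chains (Ftl1, which help it to mineralise). NCOA4 carries ferritin to lysosomes for breakdown, and SLC11A1 (NRAMP1) moves metal ions out of the phagosomes of macrophages and neutrophils. SLC40A1 (ferroportin) is the only known iron exporter of mammalian cells, and transferrin receptor 1, encoded by Tfrc, brings in iron bound to transferrin and is abundant on dividing cells.

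Of these genes, 4 share a control element in their transcripts, which the choice of members did not use. The iron-responsive element is a short hairpin bound by the iron regulatory proteins when iron is low: in a 5′ UTR the bound protein blocks translation, and in a 3′ UTR it protects the transcript. A search of the UTRs of 1 coding transcript per gene (GENCODE M21, GRCm38, the RNA strand only) looked for a C, any 5 bases, the loop CAGTGN and 5 more bases able to pair with the first 5, with G-T pairs allowed. It found 1 such element in the 5′ UTR of each of Fth1, Ftl1 and Slc40a1, 4 in the 3′ UTR of Tfrc, and 0 in the UTRs of Hmox1, Slc11a1, Blvrb and Ncoa4. The same search found 1 or more elements in the 5′ UTR of 19 of 19933 coding genes (0.0953%) and in the 3′ UTR of 104 of 20553 (0.506%). A match describes letters in a window and not a bound site, and the counts analysed here are of RNA, so control of translation through these elements is not seen in them. Exon numbers are those of the transcript searched, which was the 1 with the longest coding sequence. For Fth1 that transcript has 5 exons, with the element at base 664, and exon numbers can differ in its other transcripts. The 7 stretches are shown to set the ferritin and ferroportin elements beside those of Tfrc, each 30 bases 5′ to 3′ with the loop in capitals.
Fth1, 5′ UTR, exon 2, chr19:9982732-9982761, plus strand: ttcctgcttcaaCAGTGCttgaacggaacc
Ftl1, 5′ UTR, exon 1, chr7:45459778-45459807, minus strand: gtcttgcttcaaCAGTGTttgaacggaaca
Slc40a1, 5′ UTR, exon 1, chr1:45925464-45925493, minus strand: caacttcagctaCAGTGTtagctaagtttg
Tfrc, 3′ UTR, exon 19, chr16:32631219-32631248, plus strand: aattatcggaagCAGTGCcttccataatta
Tfrc, 3′ UTR, exon 19, chr16:32631598-32631627, plus strand: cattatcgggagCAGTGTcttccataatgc
Tfrc, 3′ UTR, exon 19, chr16:32631663-32631692, plus strand: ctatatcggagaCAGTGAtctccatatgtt
Tfrc, 3′ UTR, exon 19, chr16:32631710-32631739, plus strand: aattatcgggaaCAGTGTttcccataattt
The Fth1 and Ftl1 stretches share the bases around the loop almost letter for letter, and the 4 Tfrc stretches lie within 1 exon. In the same annotation Hmox1 lies on chr8:75093621-75100589, Blvrb on chr7:27447978-27466144, Slc11a1 on chr1:74375195-74386062 and Ncoa4 on chr14:32159865-32179855, all on the plus strand.

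After filters, 4574 CD94-KO cells with 42091883 unique molecular identifiers (UMIs, 1 per captured RNA molecule) and 4388 WT cells with 36428081 UMIs were kept, with median depths of 7782.5 and 4764.5 UMIs. Of the barcodes, 8 occurred in both libraries. Cells were sorted into 8 classes by raw UMIs of marker genes, none of them a member. Macrophages (3 or more UMIs of Csf1r, Adgre1, Cd68 and Lyz2) were split by Arg1 and by Nos2 with Cxcl9, at 3 UMIs each, into macrophages high in Arg1 only (628 CD94-KO and 313 WT cells), high in Nos2/Cxcl9 only (396 and 222), high in both (411 and 187) and low in both with 5 or more C1q UMIs (178 and 109). The other classes were monocytes (458 and 302 cells), neutrophils (53 and 13), NK cells (286 and 194) and T cells (277 and 306). The remaining 41.3% of CD94-KO cells and 62.5% of WT cells fell in no class; 31.6% of these CD94-KO cells and 19.6% of these WT cells carried dendritic cell markers, and 16.2% and 45.4% had under 1000 UMIs. Cells of the 4 macrophage states together had a median of 9940 UMIs in the CD94-KO library and 9933 in the WT library. By state the medians were less close, at 7872.5 and 6637 UMIs in those low in both and 11345 and 12457 UMIs in those high in both, and 0.930% of CD94-KO and 4.33% of WT macrophages had under 1000 UMIs. Macrophages high in Arg1 only were 38.9% [36.5 to 41.4] of all CD94-KO macrophages and 37.7% [34.4 to 41.1] of all WT macrophages, and the other 3 states were 24.6% and 26.7% (high in Nos2/Cxcl9 only), 25.5% and 22.5% (high in both) and 11.0% and 13.1% (low in both).

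Genes not used for sorting bore most class names out. Apoe, a lipid carrier made by macrophages, stood at 987 CPM (counts scaled to a common total of UMIs per class) in CD94-KO and 978 CPM in WT macrophages, and at 33.4 and 42.8 CPM in NK cells. Gzma, Prf1, Eomes and Klre1 summed to 7107 CPM in CD94-KO and to 5467 CPM in WT NK cells. In macrophages they summed to 36.9 and 111.9 CPM, and the excess in WT macrophages was largest in those high in Arg1 only (28.3 CPM in CD94-KO, against 169 CPM in WT). The neutrophil class carried transcripts of macrophages as well as its own. Cxcl2, Il1r2, Mmp9 and Clec4d summed to 53239 CPM in CD94-KO neutrophils, against 36619 CPM in WT neutrophils, and to 8975 and 9124 CPM in macrophages. Apoe stood at 422 CPM in CD94-KO neutrophils, against 628 CPM in WT neutrophils, Pf4 at 24.2 and 12.1 CPM (206 and 182 CPM in macrophages) and Ms4a7 at 19.4 and 24.1 CPM (72.7 and 61.6 CPM in macrophages). The monocyte class was less distinct. Ccr2, Plac8 and Ly6a summed to 5095 CPM in CD94-KO, against 4357 CPM in WT monocytes, but to 5716 and 4911 CPM in macrophages high in Nos2/Cxcl9 only. Monocytes here are myeloid cells with 5 or more UMIs of Ly6c2, Vcan, F13a1, Ms4a4c and Chil3 and few or none of C1q, Arg1, Nos2 and Cxcl9, and these 3 genes do not set them apart from macrophages. Haemoglobin and erythroid genes summed to 1 UMI over all CD94-KO barcodes and 5 over all WT barcodes, and to 0 in each of the 8 classes of both libraries, so these cells held no measurable red-cell RNA. Klrd1 itself stood at 339 CPM in CD94-KO, against 732 CPM in WT NK cells. Because the deleted part is not known and the counts come from transcript 3′ ends, this is not a check of the genotype.

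Hmox1 was highest in monocytes in both libraries. It stood at 608 CPM in CD94-KO and at 633 CPM in WT monocytes, and at 329 and 256 CPM in the macrophages of the same libraries. The monocyte level was 1.85 times the macrophage level [1.76 to 1.94] in CD94-KO, against 2.47 times [2.32 to 2.64] in WT. Next came C1q macrophages low in both, at 469 CPM in CD94-KO, against 368 CPM in WT. The other 3 macrophage states followed at 269 to 373 CPM in CD94-KO, against 225 to 256 CPM in WT, and their intervals overlapped from neighbour to neighbour in WT but not in CD94-KO. Neutrophils had 160 CPM [110 to 225] in CD94-KO, against 109 CPM [49.7 to 206] in WT; the part of the macrophage transcripts named above in these and the other neutrophil levels was not tested. T cells had 24.0 and 24.1 CPM, and NK cells 15.9 and 10.8 CPM. Within macrophages, then, cells without strong Arg1 or Nos2/Cxcl9 expression carried the most of this transcript per UMI.

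Hmox1 was also concentrated in few cells. Over all macrophages the 10 cells richest in it had 17.4% of the Hmox1 UMIs in CD94-KO, against 24.9% in WT, which had fewer macrophages. For Slc11a1, Fth1, Ftl1 and Blvrb this share was 3.74% to 7.22% and 5.76% to 12.2%. In macrophages high in Nos2/Cxcl9 only, the share in the 10 richest cells was 32.4% in CD94-KO, against 58.9% in WT. For those high in both, the 10 richest cells held 39.1% and 57.7%, and the richest CD94-KO cell had 152 UMIs. The median cell had 91.6 CPM in CD94-KO, against 0 CPM in WT macrophages high in Nos2/Cxcl9 only, although the sums over cells were 373 and 251 CPM. A class level of Hmox1 is thus set by a minority of cells. For Slc11a1 the 10 richest cells of the same state held 13.1% in CD94-KO and 23.4% in WT, and for Fth1 9.90% and 16.1%.

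Blvrb, the other haem-breakdown member, was lower in monocytes, at 80.1 CPM in CD94-KO, against 73.6 CPM in WT, than in macrophages, at 160 and 115 CPM. The monocyte level was 0.499 times the macrophage level [0.443 to 0.561] in CD94-KO, against 0.641 times [0.545 to 0.750] in WT. Among macrophage states Blvrb was highest in those high in both, with 210 CPM in CD94-KO, against 130 CPM in WT. It was lowest in those high in Arg1 only in CD94-KO, at 115 CPM, and equally low in WT in those high in Arg1 only (104 CPM) and C1q macrophages low in both (103 CPM). NK cells had 8.34 and 15.5 CPM and T cells 11.7 and 10.6 CPM. Blvrb and Hmox1 thus had their high points in different myeloid classes.

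The constitutive haem oxygenase Hmox2 and the other biliverdin reductase Blvra were even by comparison. Hmox2 had 52.1 CPM in CD94-KO, against 48.4 CPM in WT macrophages, and 51.5 and 57.4 CPM in monocytes. Blvra had 41.8 and 39.3 CPM in macrophages and 38.0 and 39.6 CPM in monocytes.

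**Figure D1:**
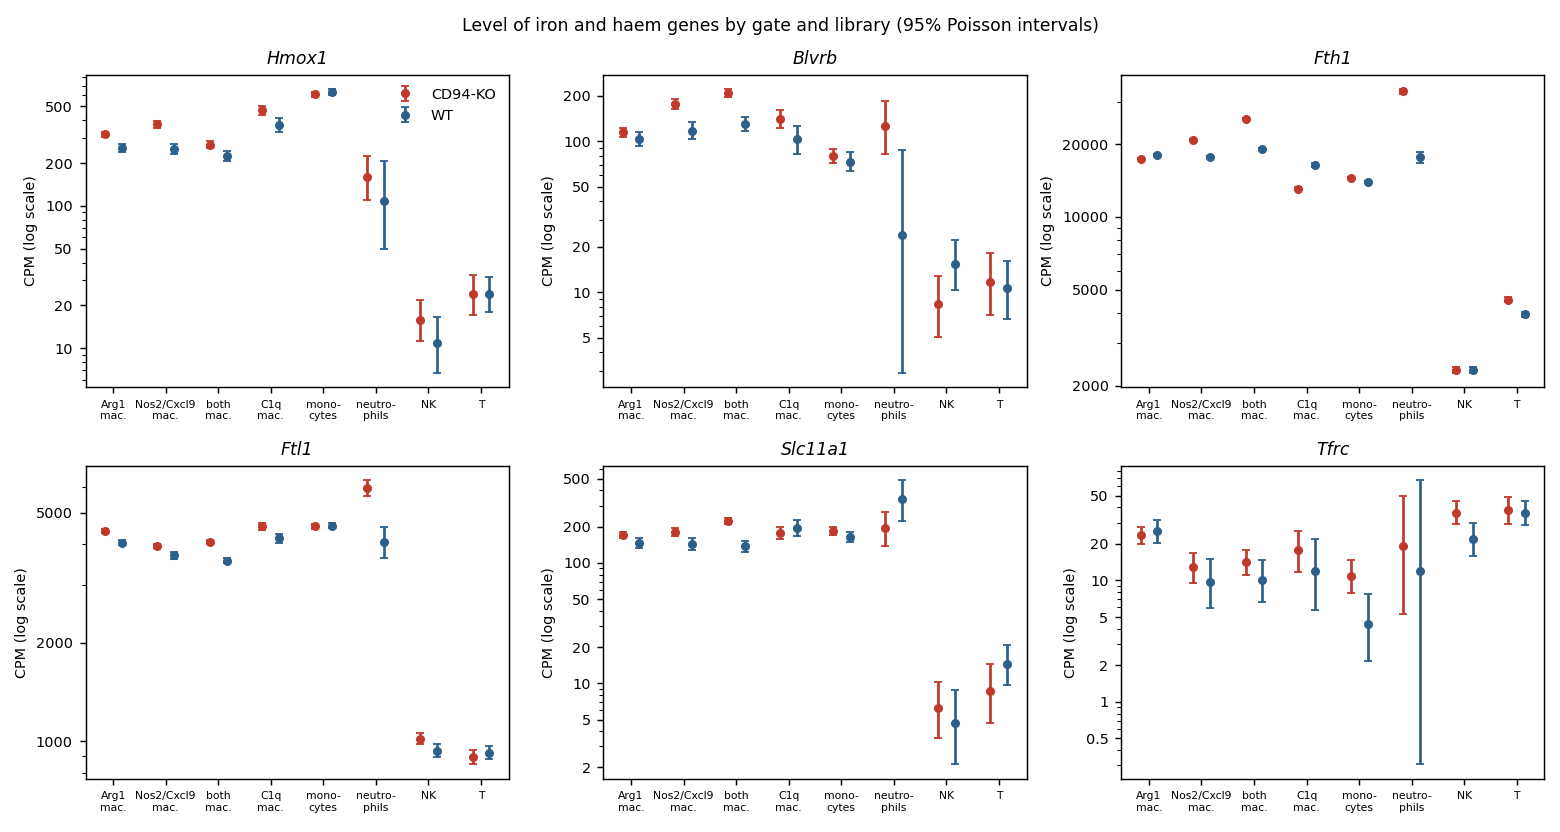
Level of 6 members in CPM (log scale, 1 scale per gene) in each of the 8 cell classes, CD94-KO in red at the left of each pair and WT in blue, points from UMIs summed over cells with 95% Poisson intervals. Hmox1 peaks in monocytes (608 and 633 CPM), Blvrb in macrophages high in both, and Tfrc alone is higher in NK and T cells than in most myeloid classes.

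Both ferritin chains were detected in nearly all cells. Fth1 had at least 1 UMI in 100% of cells of each of the 8 classes in both libraries except CD94-KO monocytes (99.8%). It was highest in CD94-KO neutrophils at 33110 CPM, or 1.63 times [1.59 to 1.67] the level of CD94-KO macrophages. The 13 WT neutrophils had 17634 CPM, close to the 18117 CPM of WT macrophages. Among CD94-KO macrophages Fth1 ran from 13082 CPM in C1q macrophages low in both through 17396 (high in Arg1 only) and 20827 (high in Nos2/Cxcl9 only) to 25505 CPM in those high in both, all apart beyond their intervals. Among WT macrophages the same states spanned only 16402 to 19036 CPM. Monocytes had 14453 CPM in CD94-KO, against 13931 CPM in WT. The CD94-KO library thus spread its macrophage states further apart in Fth1 than the WT library did.

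Ftl1 was flatter. Across the 4 macrophage states and monocytes it lay between 3959 and 4539 CPM in CD94-KO and between 3570 and 4568 CPM in WT. CD94-KO neutrophils had 5950 CPM [5622 to 6292] and WT neutrophils 4055 CPM [3633 to 4513]. Among macrophages, the states richest in Fth1 were not richest in Ftl1: macrophages high in both had 25505 CPM of Fth1 but 4071 CPM of Ftl1 in CD94-KO, and C1q macrophages low in both had 13082 and 4539 CPM. Over the 10 macrophage and monocyte profiles, log2(CPM + 5) of Fth1 and Ftl1 had a Pearson r of -0.62, while over all 16 profiles, lymphocytes and neutrophils included, r was 0.94. Both values share libraries and cell classes and describe these profiles only. The annotation lists 5 further ferritin-like copies or pseudogenes (Fth-ps2, Fth-ps3, Ftl1-ps1, Ftl1-ps2 and Ftl2-ps), of which 0 are in the count tables, so how reads shared with them were counted is unknown and ferritin levels are uncertain to that extent.

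Lymphocytes had less ferritin RNA, with a difference between the chains. Fth1 stood at 4536 CPM in CD94-KO, against 3950 CPM in WT T cells, and at 2320 and 2333 CPM in NK cells. The T cell level was 1.95 times the NK cell level [1.89 to 2.02] in CD94-KO, against 1.69 times [1.63 to 1.76] in WT. Ftl1, by contrast, had 896 and 925 CPM in T cells and 1019 and 937 CPM in NK cells. The heavy chain separated T from NK cells in both libraries and the light chain did not separate them by as much. S100a8, a neutrophil gene, stood at 120 CPM in CD94-KO T cells, against 4.34 CPM in WT T cells, and at 5.01 and 2.06 CPM in NK cells. The part of neutrophil RNA in the T cell levels of Fth1 was not tested.

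Ncoa4, the ferritin carrier to lysosomes, was barely sampled. It had 132 UMIs in all kept CD94-KO cells and 107 in all kept WT cells. Its highest level in any class was 5.01 CPM, in CD94-KO NK cells, and it had 0 UMIs in neutrophils of both libraries, where 3 UMIs would have been 14.5 CPM in CD94-KO, against 36.2 CPM in WT. Levels of this gene cannot be ordered between classes at this depth.

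Slc11a1, the phagosomal metal transporter, was read mainly in myeloid cells. CD94-KO macrophages had 190 CPM and WT macrophages 148 CPM, monocytes had 185 and 165 CPM, and neutrophils 194 CPM [139 to 264] and 338 CPM [225 to 488]. The 13 WT neutrophils thus stood above WT monocytes (165 CPM [149 to 181]) beyond the intervals. In CD94-KO only macrophages high in both stood apart from another macrophage state, at 224 CPM [212 to 237] against 171 to 181 CPM in the other 3 states. In WT that state had 138 CPM, the lowest of the 4, and C1q macrophages low in both had the highest at 197 CPM [168 to 229]. NK cells had 6.26 and 4.64 CPM and T cells 8.61 and 14.5 CPM. The order of the macrophage states for Slc11a1 therefore differed between the libraries.

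Slc40a1, the iron exporter, was almost absent. It had 22 UMIs in all kept CD94-KO cells and 2 in all kept WT cells. Of the 22, 11 lay in 7 of the 53 CD94-KO neutrophils (13.2% [5.48 to 25.3]), which made 53.3 CPM [26.6 to 95.4] in that class. The 13 WT neutrophils had 1 UMI, or 12.1 CPM [0.306 to 67.2], so the 2 intervals overlapped. CD94-KO macrophages had 4 UMIs over 1613 cells and WT macrophages 0 UMIs over 831 cells, where 3 UMIs would have been 0.335 CPM. Ferroportin RNA was thus seen in few cells, neutrophils of 1 library foremost, and in macrophages it was close to the limit of detection.

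Tfrc was higher in T cells of both libraries than in macrophages or monocytes. T cells had 38.1 CPM [29.2 to 48.9] in CD94-KO, against 36.2 CPM [28.5 to 45.4] in WT. NK cells had 36.3 and 22.2 CPM, macrophages 17.8 and 16.1 CPM and monocytes 10.9 and 4.35 CPM. Among macrophages it was highest in those high in Arg1 only, at 23.7 CPM in CD94-KO, against 25.6 CPM in WT. The other 3 states had 12.9 to 17.7 CPM in CD94-KO, against 9.75 to 11.9 CPM in WT. In CD94-KO, C1q macrophages low in both had 0.747 times [0.477 to 1.13] the level of those high in Arg1 only, an interval that includes 1. A single CD94-KO cell held 33 of the 153 Tfrc UMIs of macrophages high in Arg1 only. Without the richest cell that state had 18.6 CPM, and C1q macrophages low in both had 15.9 CPM without theirs. Over the 16 profiles, log2(CPM + 5) of Tfrc had Pearson r from -0.74 to -0.59 with Hmox1, Slc11a1, Fth1, Ftl1 and Blvrb, over profiles that span lymphocytes and myeloid cells. Over the 10 macrophage and monocyte profiles alone it was -0.42 with Hmox1 and lay between 0.03 (Ftl1) and 0.33 (Blvrb) with the other 4. Over these 10 profiles, then, the r of Tfrc with Slc11a1, Fth1, Ftl1 and Blvrb was not negative. Between some macrophage states, however, Tfrc and Blvrb went in opposite directions. For macrophages high in both over those high in Arg1 only, the CD94-KO ratios were 0.598 (Tfrc) and 1.83 (Blvrb). In WT they were 0.395 and 1.26. For C1q macrophages low in both over those high in Arg1 only, the WT ratios were 0.464 (Tfrc) and 0.997 (Blvrb), so Blvrb was level there.

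**Figure D2:**
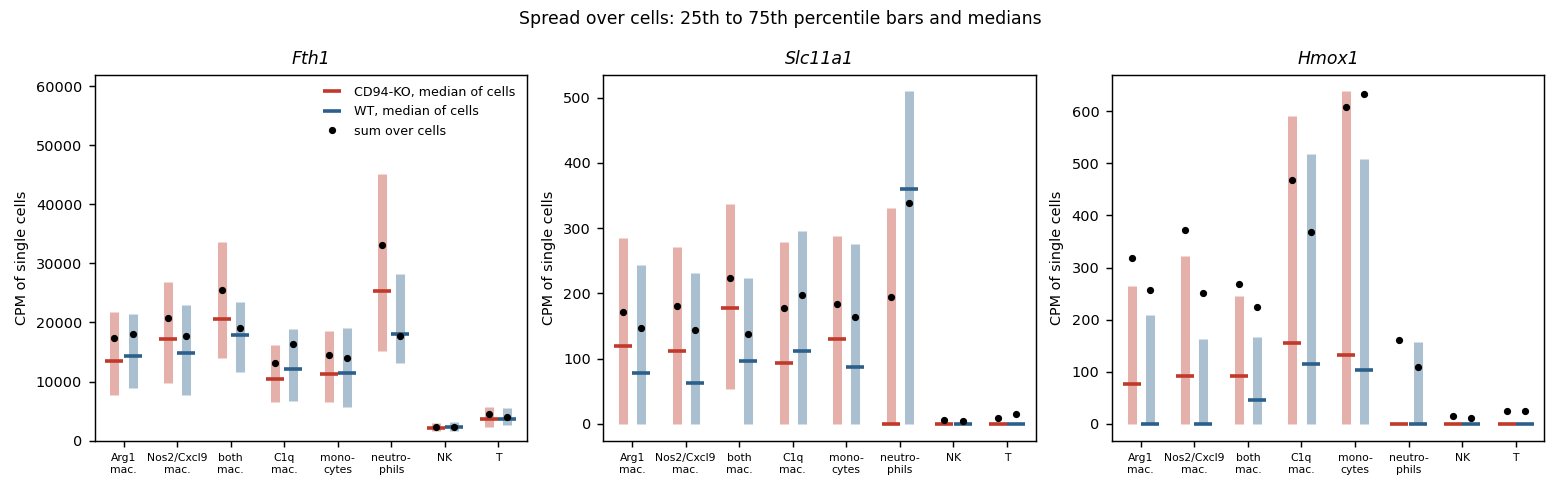
CPM of single cells for Fth1, Slc11a1 and Hmox1 in each class, bars from the 25th to the 75th percentile and lines at the median, CD94-KO in red left of WT in blue, black dots for the sum over cells. For Hmox1 the dots lie far above the medians, since few cells hold much of the transcript, while for Fth1 they lie near them.

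The same 1.5-fold rule, with at least 20 UMIs over both sums, was applied to these differences between classes. For monocytes over macrophages, Hmox1 was the 1 of 7 measured members higher in CD94-KO (8.06% of all genes) and in WT (8.15%), and Blvrb and Tfrc were the 2 lower (15.3% of genes in CD94-KO and 19.5% in WT). For neutrophils over macrophages in CD94-KO, Fth1 was the 1 of 7 higher (16.3% of genes), and Hmox1 and Ncoa4 were the 2 lower (55.7%). Ncoa4 is counted there on 0 neutrophil UMIs, with a ratio interval of 0 to 5.98 that includes 1. For neutrophils over monocytes in CD94-KO, Fth1, Blvrb and Tfrc were the 3 of 6 higher (15.2%) and Hmox1 the 1 lower (50.8%). Tfrc had 4 and 43 UMIs there (ratio 1.78 [0.464 to 4.90]), an interval that includes 1.

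For macrophages high in both over those high in Arg1 only, Blvrb was the 1 of 7 higher in CD94-KO (ratio 1.83 [1.67 to 2.02], 6.02% of genes), and Tfrc (ratio 0.598) and Ncoa4 (0.504 [0.226 to 1.05]) were the 2 lower (8.77%). In WT 0 of 6 were higher (6.38%) and Tfrc was the 1 lower (ratio 0.395, 7.39%). For C1q macrophages low in both over those high in Arg1 only, 0 of 7 were higher in CD94-KO (12.8%) and Ncoa4, with 2 and 27 UMIs (ratio 0.314 [0.0361 to 1.25]), was the 1 lower (12%). In WT 0 of 6 were higher (14.5%) and Tfrc was the 1 lower (14.4%).

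For macrophages over NK cells, 5 of 7 members were higher in CD94-KO (28% of genes) and 5 of 7 in WT (31.7%): Hmox1, Slc11a1, Fth1, Ftl1 and Blvrb. Tfrc and Ncoa4 were the 2 lower in CD94-KO (31.7%), and 0 were lower in WT (26.5%). Ncoa4 had 53 and 12 UMIs (ratio 0.619 [0.327 to 1.27]). For macrophages over T cells, the same 5 and Ncoa4 made 6 of 7 higher in CD94-KO (25.7%), the 5 were higher in WT (26.1%), and Tfrc was the 1 lower in CD94-KO (34.3%) and in WT (30.4%). Ncoa4 had 53 and 3 UMIs in CD94-KO (ratio 1.68 [0.544 to 8.40]), so each of these Ncoa4 intervals includes 1. For T cells over NK cells, 2 of 6 were higher in CD94-KO (Fth1 and Hmox1, 19.1%) and 4 of 6 in WT (Fth1, Hmox1, Slc11a1 and Tfrc, 21.4%), and 0 were lower in either (12.5% and 9.99%). The Hmox1 ratio in CD94-KO was 1.51 [0.943 to 2.43], an interval that includes 1. The NK cell levels of Hmox1 and Slc11a1 under these ratios lie near the shares of macrophage genes given next.

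The low myeloid transcripts in lymphocytes were set against free RNA, which reaches all droplets. Apoe, Pf4 and Ms4a7, macrophage genes that lymphocytes should lack, stood in NK cells at 3.38% to 5.16% of the macrophage CPM in CD94-KO, against 2.51% to 4.37% in WT. In T cells they stood at 3.88% to 9.30% and 4.70% to 6.61%. Hmox1 in NK cells stood at 4.82% [3.41 to 6.63] in CD94-KO, against 4.23% [2.61 to 6.48] in WT, and Slc11a1 at 3.29% and 3.13%. Hmox1 and Slc11a1 in NK cells thus lay near the shares of these macrophage genes, and whether their counts are free RNA was not tested. In T cells Hmox1 stood at 7.30% in CD94-KO, within the range, and at 9.42% [6.97 to 12.5] in WT, above it. The ranges are of point values. In WT T cells the intervals of Apoe [5.53 to 7.84], Pf4 [2.83 to 7.58] and Ms4a7 [1.72 to 10.3] overlapped that of Hmox1. The CD94-KO top of 9.30% was Ms4a7 at 11 UMIs [4.63 to 16.7]. Slc11a1 stood at 4.53% and 9.77% [6.57 to 14.02] and Blvrb at 7.29% and 9.25% [5.77 to 14.1] in T cells, within the range in CD94-KO and above its top in WT, with WT intervals that reach into it. Blvrb in NK cells stood at 5.20% [3.17 to 8.05] in CD94-KO, at the upper edge of the range, but at 13.5% [9.04 to 19.3] in WT, above it. Ferritin was well above the range in both lymphocyte classes, with Fth1 at 11.4% to 22.4% and Ftl1 at 21.3% to 24.4%, and Tfrc exceeded the macrophage level, at 138% to 225%.

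**Figure D3:**
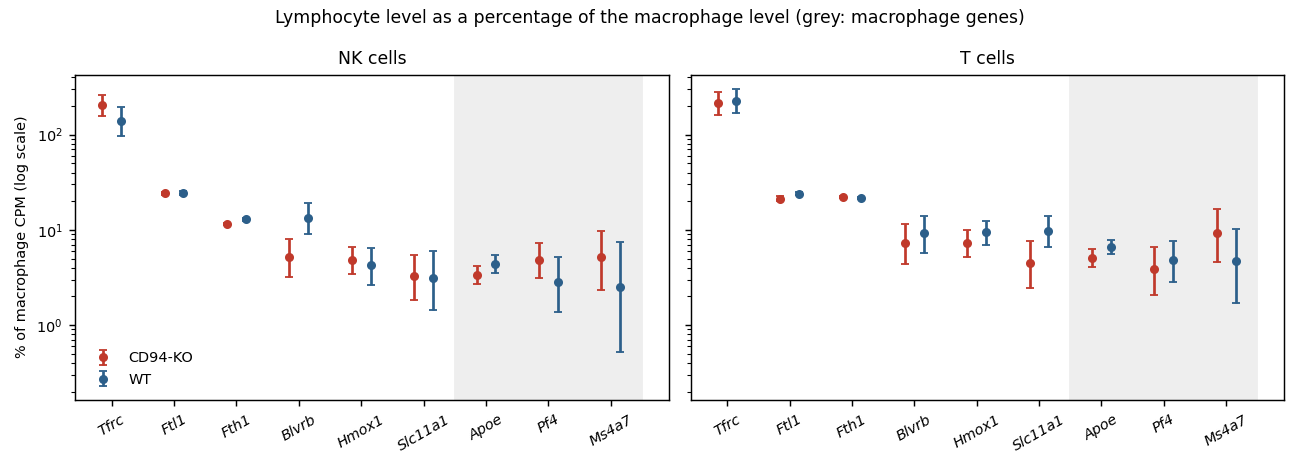
Level in NK cells (left) and T cells (right) as a percentage of the macrophage level of the same library (log scale) for 6 members and, on grey, 3 macrophage genes, CD94-KO in red left of WT in blue, with 95% intervals. Hmox1 and Slc11a1 sit near the macrophage genes in NK cells and, in WT T cells, above them with overlapping intervals. The 2 ferritin chains sit above them, and Tfrc above 100%.

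Whether the loss of CD94 went with other levels of these genes was asked class by class, as the ratio of CPM in CD94-KO over WT. A member was counted as higher or lower only at 1.5-fold or more and with at least 20 UMIs over both sums. Over all 4 macrophage states together, 0 of 7 measured members passed 1.5-fold, against a background of 4.02% of genes higher and 6.1% lower. All 7 ratios nonetheless lay above 1, with unscaled totals and with TMM scaling. Blvrb was nearest the threshold at 1.40 [1.30 to 1.503], followed by Hmox1 at 1.28 [1.22 to 1.35] and Slc11a1 at 1.28 [1.20 to 1.37]. Fth1 had a ratio of 1.12 and Ftl1 of 1.10, while Tfrc (1.11) and Ncoa4 (1.16) had intervals that included 1. The median log2 ratio of the members was 0.16, against -0.01 over all genes. A UMI of Hmox1 was found in 58.6% of CD94-KO and 47.3% of WT macrophages, but in 18.5% [16.7 to 20.5] and 16.9% [14.3 to 19.6] once every cell was thinned to 1000 UMIs, in the 1598 CD94-KO and 795 WT cells deep enough for it.

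Macrophages high in both Arg1 and Nos2/Cxcl9 differed most between the libraries in Slc11a1 and Blvrb. Slc11a1 had 224 CPM in CD94-KO, against 138 CPM in WT, a ratio of 1.62 [1.44 to 1.83]. Blvrb had 210 CPM in CD94-KO, against 130 CPM in WT, a ratio of 1.61 [1.43 to 1.83]. Of 7 measured members these 2 passed 1.5-fold higher, against a background of 5.79% of genes, and 1 was lower, against 8.95%. The lower one was Ncoa4, at 11 CD94-KO and 9 WT UMIs (ratio 0.624 [0.235 to 1.70]), an interval that includes 1. Fth1 was short of the threshold at 1.34 [1.33 to 1.35], with medians over cells of 20663 CPM in CD94-KO, against 17919 CPM in WT. The genes that define the class differed as well: Nos2 stood at 582 CPM in CD94-KO, against 205 CPM in WT, Arg1 at 3697 and 2694 CPM, and Cxcl9 at 2248 and 2175 CPM. Monocyte and neutrophil genes differed too: Ccr2, Plac8 and Ly6a summed to 3890 CPM in CD94-KO, against 2575 CPM in WT, Ly6c2 stood at 714 and 384 CPM, and S100a9 at 7.27 and 78.3 CPM. The part of all these genes in the Slc11a1 and Blvrb ratios was not tested. The ratios were under the threshold, at 1.31 for Slc11a1 and 1.20 for Blvrb, with every cell thinned to 1000 UMIs, and at 1.43 and 1.42 with the exclusion limits on other cell types set to 0.

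In macrophages high in Nos2/Cxcl9 only, 0 of 7 measured members passed 1.5-fold, against 8.07% of genes higher and 5.33% lower. The 2 haem-breakdown genes were at its edge. Hmox1 had 373 CPM in CD94-KO, against 251 CPM in WT, a ratio of 1.49 [1.34 to 1.65], and Blvrb had 177 and 118 CPM, a ratio of 1.4985 [1.29 to 1.74]. Slc11a1 had a ratio of 1.26 and Fth1 of 1.17. Of the 7 ratios, 6 lay above 1, all but Ncoa4 with 13 and 9 UMIs. Under the alternative settings the ratio ran from 1.20 to 1.72 for Hmox1 and from 1.42 to 1.70 for Blvrb. Marker genes differed in this state too, with Nos2 at 254 CPM in CD94-KO, against 139 CPM in WT. Ly6c2 stood at 1490 and 1009 CPM and S100a9 at 43.1 and 8.78 CPM, while Cxcl9 was close at 3020 and 3098 CPM. The part of these genes in the Hmox1 and Blvrb ratios was not tested.

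Among macrophages high in Arg1 only, 1 of 7 measured members passed 1.5-fold higher, against 6.33% of genes, and 0 passed lower, against 7.16%. That member was Ncoa4, with 27 UMIs in CD94-KO and 3 in WT (4.18 and 0.882 CPM, ratio 4.73 [1.46 to 24.4]), a ratio that rests on 3 WT molecules. Hmox1 had 318 CPM in CD94-KO, against 256 CPM in WT (ratio 1.24 [1.14 to 1.34]). Fth1 had 17396 and 18037 CPM (ratio 0.964), so the ferritin heavy chain was not higher in CD94-KO in this state. Beside these values stand the NK cell genes named above, at 28.3 CPM in CD94-KO, against 169 CPM in WT in this state; their part was not tested.

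In C1q macrophages low in both, 0 of 6 measured members passed 1.5-fold, against 9.18% of genes higher and 9.47% lower. Fth1 was on the other side of 1 from the states high in Nos2/Cxcl9, at 13082 CPM in CD94-KO, against 16402 CPM in WT (ratio 0.798 [0.780 to 0.815]). Hmox1 had a ratio of 1.27 [1.11 to 1.46] and Blvrb of 1.36 [1.06 to 1.77]. Under the alternative settings the Blvrb ratio ran from 0.732 to 1.45, on both sides of 1. That of Hmox1 ran from 1.17 to 1.37. Ccr2, Plac8 and Ly6a summed to 4497 CPM in CD94-KO, against 3331 CPM in WT, and Ly6c2 stood at 1672 and 1240 CPM. S100a8 was lower in CD94-KO, at 39.9 and 120 CPM, as were the NK cell genes named above in sum, at 32.7 and 79.5 CPM. The part of these genes in the ratios was not tested.

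In monocytes, Tfrc was the 1 of 6 measured members past 1.5-fold higher, against 6.9% of genes, and 0 were lower, against 5.4%. It had 43 UMIs in CD94-KO and 11 in WT (10.9 and 4.35 CPM, ratio 2.50 [1.27 to 5.38]). A UMI was found in 6.11% of CD94-KO and 2.98% of WT monocytes. The other 5 measured members had ratios from 0.960 (Hmox1) to 1.12 (Slc11a1), so in the class richest in Hmox1 the libraries differed little in it.

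**Figure D4:**
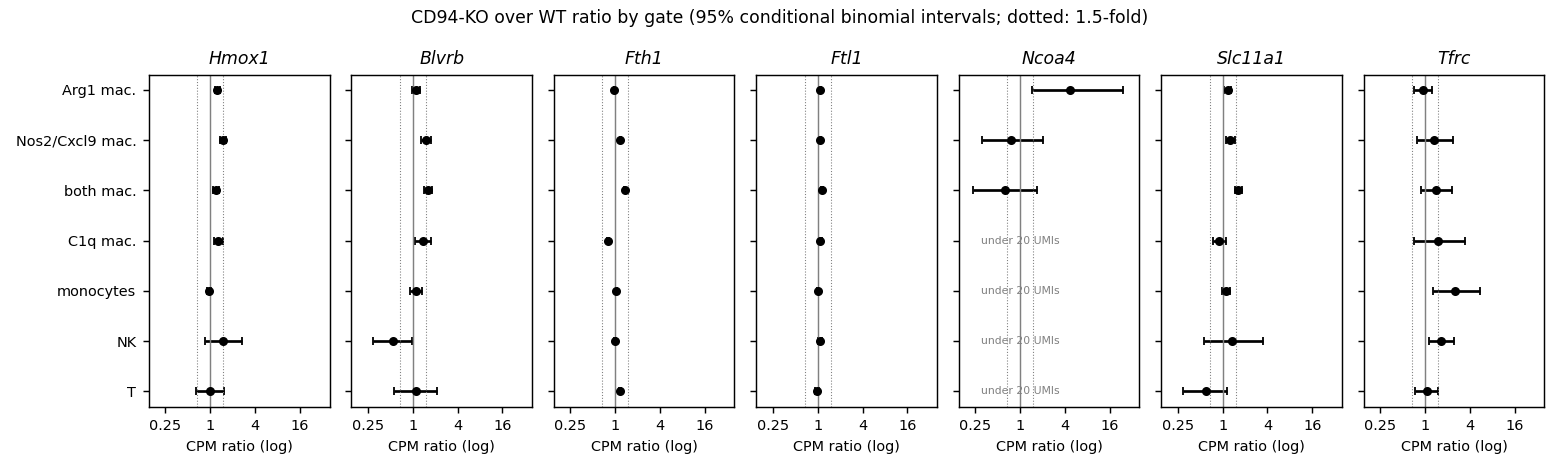
Ratio of CPM in CD94-KO over WT for 7 members (log scale) in 7 classes with at least 50 cells in both libraries, with 95% conditional binomial intervals, a line at 1 and dotted lines at 1.5-fold in either direction. Slc11a1 and Blvrb pass 1.5-fold in macrophages high in both, Tfrc in monocytes and NK cells, and wide intervals mark Ncoa4.

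In NK cells, 1 of 6 measured members passed 1.5-fold higher, against 13.9% of genes, and 1 passed lower, against 5.19%. Tfrc had 36.3 CPM [29.1 to 44.8] in CD94-KO, against 22.2 CPM [16.04 to 29.9] in WT, a ratio of 1.64 [1.12 to 2.42], and was found in 21.0% and 15.98% of cells. Blvrb had 20 UMIs in CD94-KO and 30 in WT (8.34 and 15.5 CPM, ratio 0.540 [0.290 to 0.982]). As a share of the macrophage level, the CD94-KO level of Blvrb was close to those of Apoe, Pf4 and Ms4a7. All genes together were shifted in this class, with a median log2 ratio of 0.10. With TMM scaling, which moved log2 ratios by -0.12, the ratio of Tfrc was 1.51 and that of Blvrb 0.496. Median depth was 6350.5 UMIs per CD94-KO and 7931.5 per WT NK cell.

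In T cells, 0 of 6 measured members passed 1.5-fold higher, against 11.6% of genes, and 1 passed lower, against 6.8%. The lower one was Slc11a1 at 14 CD94-KO and 30 WT UMIs (ratio 0.595 [0.292 to 1.16]), with an interval that includes 1. Tfrc had 38.1 CPM in CD94-KO, against 36.2 CPM in WT (ratio 1.05 [0.740 to 1.49]), and Fth1 had 4536 and 3950 CPM (ratio 1.15 [1.11 to 1.19]). Neutrophils were not compared between genotypes, with 13 WT cells.

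Over the measured members, the median log2 ratio of CD94-KO over WT was 0.34 in macrophages high in both, where that of all genes was -0.03. It was 0.28 in those high in Nos2/Cxcl9 only (all genes 0.02), 0.23 in C1q macrophages low in both (0.01) and 0.14 in those high in Arg1 only (-0.01). In monocytes it was 0.08 (all genes 0.03), in NK cells 0.17 (0.10) and in T cells 0.03 (0.06). The members above the median of all genes were 6 of 7, 6 of 7, 4 of 6 and 5 of 7 in these 4 macrophage states, in the same order, 4 of 6 in monocytes and in NK cells and 3 of 6 in T cells. Fth1 lay below it with Tfrc in macrophages high in Arg1 only and with Slc11a1 in C1q macrophages low in both.

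The states themselves were compared within each library, macrophages high in Nos2/Cxcl9 only over those high in Arg1 only. In CD94-KO, 1 of 7 measured members passed 1.5-fold higher, against 9.51% of genes, and 1 passed lower, against 12.9%. In WT, 0 of 6 passed higher, against 9.53%, and 1 passed lower, against 16.4%. The lower member was Tfrc in both: 12.9 against 23.7 CPM in CD94-KO (ratio 0.545 [0.388 to 0.754]) and 9.75 against 25.6 CPM in WT (ratio 0.381 [0.222 to 0.625]). Without the richest cell of each state the ratios were 0.651 in CD94-KO and 0.367 in WT, an alternative chosen after seeing the data. With every cell given the same weight they were 0.661 and 0.760, the WT one short of 1.5-fold. With every cell thinned to 1000 UMIs the CD94-KO ratio was 0.902, past the threshold no longer, and WT had too few UMIs for a ratio. The higher member was Blvrb in CD94-KO, at 177 against 115 CPM (ratio 1.54 [1.39 to 1.71]), while in WT it had 118 against 104 CPM (ratio 1.14 [0.964 to 1.35]). The difference in Blvrb between the libraries was not tested.

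Around the members, 10 lists of 73 pathway genes gave 71 genes in the tables. Over all macrophages 51 of them were measured, of which 3 were higher in CD94-KO and 2 lower, close to the 4.02% and 6.1% of all genes. Haptoglobin (Hp), which binds free haemoglobin, was higher at 75.3 CPM in CD94-KO, against 49.98 CPM in WT (ratio 1.51 [1.35 to 1.68]), and in macrophages high in Arg1 only at 60.9 and 31.2 CPM (ratio 1.95 [1.57 to 2.45]). Monocyte and neutrophil genes were also higher in CD94-KO in that state, with Ccr2, Plac8 and Ly6a at 2157 and 1593 CPM in sum, Ly6c2 at 498 and 350 CPM and S100a8 at 39.3 and 13.5 CPM, while C1qa was lower at 422 and 675 CPM. Their part in the Hp ratio was not tested. Steap3, an endosomal ferric reductase, was lower at 3.63 and 5.47 CPM (ratio 0.663 [0.449 to 0.985]), as was Cpox, an enzyme of haem synthesis, at 8.42 and 12.9 CPM (ratio 0.651 [0.506 to 0.838]). The list of haem and haemoglobin uptake had 2 of 5 measured genes higher and 0 lower, and that of haem synthesis 0 of 10 higher and 1 lower. The second gene of the uptake list, Cd163, the haemoglobin scavenger receptor, named after its values were seen, had 66 UMIs in CD94-KO macrophages and 0 in WT macrophages, but 39 of the 66 lay in 1 cell.

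By state, 45 to 48 list genes were measured in the 3 states high in a marker. In macrophages high in Arg1 only, 2 were higher and 5 lower (6.33% and 7.16% of all genes), and the lower ones included Slc7a11, the cystine transporter and an NRF2 target, at 277 CPM in CD94-KO, against 441 CPM in WT (ratio 0.630 [0.588 to 0.675]). Slc7a11 was lower too in C1q macrophages low in both, at 202 and 427 CPM (ratio 0.474 [0.405 to 0.553]), where 5 of 39 measured genes were higher and 3 lower (9.18% and 9.47%). In macrophages high in Nos2/Cxcl9 only, 4 were higher and 2 lower (8.07% and 5.33%). The mitochondrial iron importer Slc25a37 had 57.8 and 33.7 CPM (ratio 1.72 [1.30 to 2.28]), and sulfiredoxin Srxn1, another NRF2 target, 99.3 and 55.1 CPM (ratio 1.80 [1.46 to 2.24]). In macrophages high in both, 4 were higher and 4 lower (5.79% and 8.95%). Fbxl5, the iron sensor that marks iron regulatory protein 2 for breakdown, had 167 and 110 CPM (ratio 1.51 [1.33 to 1.73]). Srxn1 had a ratio of 1.56 and the peroxidase Prdx1, with 1034 and 687 CPM, of 1.505 [1.43 to 1.59]. Of the 7 measured NRF2 targets, 2 were higher in macrophages high in both and 1 in those high in Nos2/Cxcl9 only, 1 was lower in those high in Arg1 only and 1 in C1q macrophages low in both, and 0 passed in either direction over all macrophages.

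In C1q macrophages low in both, Slc25a37 (ratio 1.57 [1.003 to 2.54]) and Mafk, a small MAF partner of NRF2 and BACH1 (ratio 1.51 [1.14 to 2.02]), were higher. Monocytes had 1 of 46 measured list genes higher and 1 lower (6.9% and 5.4% of all genes). NK cells had 6 of 43 higher and 2 lower, near the 13.9% and 5.19% of all genes. T cells had 2 of 42 higher and 4 lower (11.6% and 6.8%). The gene named in both lymphocyte classes was Bach1, a haem-binding repressor of Hmox1 and ferritin genes, with 35.9 CPM in CD94-KO, against 17.5 CPM in WT NK cells (ratio 2.05 [1.36 to 3.14]) and 54.1 and 30.9 CPM in T cells (ratio 1.75 [1.26 to 2.46]). With TMM scaling its ratios were 1.88 in NK cells and 1.66 in T cells.

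The same lists were counted between states. For macrophages high in Nos2/Cxcl9 only over those high in Arg1 only, 9 of 48 measured list genes were higher and 7 lower in CD94-KO (9.51% and 12.9% of all genes), and 4 of 46 higher and 7 lower in WT (9.53% and 16.4%). Hp was higher in both libraries, at 124 against 60.9 CPM in CD94-KO (ratio 2.04) and 90.7 against 31.2 CPM in WT (ratio 2.91). Lrp1, the receptor for haem bound to haemopexin, was lower in both, at 176 against 363 CPM in CD94-KO (ratio 0.485) and 155 against 349 CPM in WT (ratio 0.443). In CD94-KO, Slc25a37 (ratio 2.35), Fbxl5 (2.07), Txnrd1 (1.78), G6pdx (1.57), Prdx1 (1.57) and Nfe2l2, which encodes NRF2 (1.54), were higher. Hfe (0.412), Aco1, which encodes iron regulatory protein 1 (0.643), Glrx5 (0.657) and transferrin, Trf (0.659), were lower in CD94-KO. In WT, Bach1 (ratio 1.72) and Hfe (1.54) were higher and Slc39a14, a transporter of iron not bound to transferrin (0.568), and Gclc (0.507) lower. Hfe thus lay on opposite sides in the libraries, at 10.3 against 25.1 CPM in CD94-KO and 26.3 against 17.1 CPM in WT, a difference that was not tested.

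The transcripts that went most closely with each member over the 16 profiles (8 classes in 2 libraries) were found among 7950 genes by Pearson r of log2(CPM + 5). Hmox1 was nearest Ms4a6c (r = 0.985), AI607873 (0.984) and Stom (0.983). Slc11a1 was nearest Spi1 (0.989), Cyp4f18 (0.988) and Gpr35 (0.986), and Fth1 nearest Ptgs2 (0.993), Il1b (0.986) and Slc16a3 (0.983). Ftl1 was nearest Lilrb4a (0.994), Emilin2 (0.991) and Ier3 (0.991), and Blvrb nearest Rab5c (0.970), Myo1c (0.966) and Cttnbp2nl (0.966). Tfrc had no partner above 0.859 (Ifi27), followed by Hnrnpr (0.843) and Tcf3 (0.840). Profiles of 1 library share its depth and its free RNA, and the profiles span myeloid cells and lymphocytes.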

How the data were processed

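Single-cell RNA was measured by 10x Genomics 3′ libraries (v2 chemistry per the labels' protocols), 1 per genotype. The deposited values are raw UMI counts per gene and cell per the file headers, which give Cell Ranger 5.0.0; the submitters' processing notes name mm10 and Seurat 4.0. The deposited tables held 5175 CD94-KO and 5358 WT barcodes.

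Cells were kept from 500 UMIs and 300 genes upwards where mitochondrial UMIs stayed below 10% (4765 CD94-KO, 4571 WT). Scrublet's own threshold (scanpy 1.11.5) marked 0 cells in either library, and the top 4% by score were dropped instead (191 and 183). Classes came from raw marker UMIs, with 0 cells in more than 1 class; Hp was left out of the monocyte markers because it is a haem gene. UMIs were summed per class and library and given as CPM with exact Poisson intervals, ratios with conditional binomial intervals and shares with Clopper-Pearson intervals (scipy 1.17.1). Since UMIs of 1 library are not replicates, no count model was fitted. TMM factors came from edgeR 4.0.16. Flvcr1 and Flvcr2 were not used here.

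The members and lists were chosen with earlier results of these data known. List genes were named at 1.5-fold or more with at least 100 UMIs and an interval without 1, at most 4 per list and comparison. Interval and ratio calculations were tested on simulated data. Alternatives covered scaling, minimum counts, a pseudocount, cell weights, doublets, filters, thinning and gate limits.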

Additional observations from a re-analysis of the deposited data

Results flagged for a closer look

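Blvrb differed between CD94-KO and WT in opposite directions in 2 cell classes: its ratio was 1.61 [1.43 to 1.83] in macrophages high in both Arg1 and Nos2/Cxcl9 and 0.540 [0.290 to 0.982] in NK cells. With 1 library per genotype the difference between the classes was not tested. The NK cell value rests on 20 CD94-KO and 30 WT UMIs.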

How the results depend on the processing

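Of 540 single member ratios recomputed under 10 settings in 9 comparisons, 443 stayed within their main interval, 97 lay outside it and 0 changed sign as a called value; 83 of 95 called ratios kept their call. Counts of members past 1.5-fold are small, and 37 of 176 changed by more than 1.5 times; the cause was not tested. With every cell thinned to 1000 UMIs, the higher count was 0 in macrophages high in Arg1 only, macrophages high in both, monocytes and NK cells, and 1 in macrophages high in Nos2/Cxcl9 only and in T cells. The lower count was then 0 in macrophages high in both, NK cells, T cells and, for Nos2/Cxcl9 over Arg1 macrophages, in both libraries. Of the calls lost there, Slc11a1 and Blvrb in macrophages high in both fell to ratios of 1.31 and 1.20, and Tfrc between the CD94-KO states stood at 0.902. The others, with Tfrc in monocytes and NK cells among them, had under 20 UMIs left and no ratio; under the other settings Tfrc stayed at 1.70 to 2.50 in monocytes and 1.51 to 1.64 in NK cells. With every cell given the same weight, the higher count was 4 in macrophages high in both, 1 in those high in Nos2/Cxcl9 only and in C1q macrophages low in both, and 0 between states in CD94-KO. The lower count was 1 in macrophages high in Nos2/Cxcl9 only and 0 in those high in both and between states in WT. At 50 UMIs per member, the higher count in macrophages high in Arg1 only and the lower counts in macrophages high in both and T cells were 0, as were both of these lower counts with ratios of CPM + 5. With cells of at least 1000 UMIs the lower count in T cells was 0. Without doublet removal the higher count was 1 in macrophages high in Nos2/Cxcl9 only and in C1q macrophages low in both, and 2 in NK cells. With a mitochondrial limit of 20% it was 2 in macrophages high in Nos2/Cxcl9 only and 1 in C1q macrophages low in both. With gate minimums doubled, macrophages high in Nos2/Cxcl9 only had 1 higher and 1 lower, those high in both 1 higher and 0 lower, and NK cells 2 higher. With exclusion limits at 0, macrophages high in both had 1 higher and 0 lower and C1q macrophages low in both 1 higher; this setting was not run for NK cells (36 CD94-KO and 16 WT cells) and T cells (40 and 23). Leaving out the cell richest in Tfrc, chosen after seeing the data, put its CD94-KO over WT ratio at 1.54, 1.52 and 1.65 in macrophages high in Nos2/Cxcl9 only, high in both and low in both, with intervals that include 1. No paired analysis was possible because each genotype has 1 library and its replicate number is only a name. Depth limits Slc40a1 and Ncoa4 most.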

Other observations

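Neutrophils, which were not compared between genotypes, held other transcripts of iron withholding and cystine uptake at their highest. Slc7a11, the cystine transporter, stood at 2910 CPM [2681 to 3152] in CD94-KO and 2245 CPM [1934 to 2592] in WT neutrophils, against 323 and 434 CPM in macrophages. Lcn2, which encodes a protein that binds bacterial iron carriers, had 233 CPM [172 to 309] in CD94-KO and 531 CPM [386 to 713] in WT neutrophils, and 0.526 and 0.335 CPM in macrophages. Hp, which binds haemoglobin, was high in monocytes, at 346 CPM in CD94-KO, against 389 CPM in WT, and in neutrophils, at 320 and 193 CPM. Hamp, which encodes the hormone hepcidin that closes ferroportin, had 14 UMIs in CD94-KO monocytes and 0 in WT monocytes. The WT neutrophil values come from 13 cells.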
